A study of Mus musculus with 18 samples.

Results

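Hdc, Igf2, Prlr, Slc17a2, Akr1c20, Rdh19, Fabp1, Serpina6 and Atp13a4 are 9 of the 24602 genes in the deposited count table. They were chosen by their measured levels in these libraries, which were high together in Nuclear_homo, Nuclear_heto and Total_WT and low in Nuclear_WT, Total_homo and Total_heto. The study sequenced RNA of mice of the 129S1/SvlmJ strain that carry the R388W allele of Nup93, a scaffold protein of the nuclear pore. Nuclear_homo and Total_homo are nuclear and total RNA of mice homozygous for the knocked-in allele (R388W/R388W), Nuclear_heto and Total_heto are the same fractions of heterozygous mice (R388W/+), and Nuclear_WT and Total_WT are those of wild-type mice. Each group has 3 libraries, which makes 18. The allele was knocked in, so each cell of a mutant animal carries it, and the labels give no age, sex or treatment. The sample labels call the material mouse tissue, whereas the design text speaks of podocytes isolated from the mice, the epithelial cells of the glomerular filter, and does not mention heterozygous animals.

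The genes belong to different pathways. Hdc makes histamine, Igf2 is a growth factor and an imprinted gene expressed from the paternal copy in most tissues, and Prlr is the prolactin receptor, which signals through JAK2 and STAT5. Akr1c20 and Rdh19 belong to enzyme families that interconvert steroids or retinoids, Fabp1 and Serpina6 encode carriers of fatty acids and glucocorticoids, and Slc17a2 and Atp13a4 encode membrane transporters. Many transcripts of the mouse proximal tubule are known to differ in level between the sexes, and Hdc and Prlr are among those known to be higher in female kidneys.

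Promoters were read to see whether genes that vary together share short motifs. RefSeq windows of 300 bases, from 250 before to 50 after a start site (build GRCm38.p6), were held for 6 of the 9 genes, with 12 start sites in all. The windows below are those of Hdc (chr2:126618629-126618928, minus strand), Slc17a2 (chr13:23806743-23807042, plus strand) and Fabp1 (chr6:71199629-71199928, plus strand), each with 1 start site, and are shown because they hold matches to different motifs. Capitals mark the matches.
Hdc: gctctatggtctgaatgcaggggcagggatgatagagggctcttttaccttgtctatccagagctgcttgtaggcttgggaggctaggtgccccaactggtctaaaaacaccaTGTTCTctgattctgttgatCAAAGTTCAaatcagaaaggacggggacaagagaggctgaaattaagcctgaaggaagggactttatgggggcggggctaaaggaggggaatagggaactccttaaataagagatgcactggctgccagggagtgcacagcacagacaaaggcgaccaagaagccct
Slc17a2: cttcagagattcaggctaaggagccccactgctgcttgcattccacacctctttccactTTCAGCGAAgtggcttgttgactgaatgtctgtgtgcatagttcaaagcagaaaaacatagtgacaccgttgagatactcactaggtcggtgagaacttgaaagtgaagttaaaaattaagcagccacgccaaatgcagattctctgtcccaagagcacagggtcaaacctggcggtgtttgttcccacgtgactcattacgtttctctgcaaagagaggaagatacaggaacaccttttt
Fabp1: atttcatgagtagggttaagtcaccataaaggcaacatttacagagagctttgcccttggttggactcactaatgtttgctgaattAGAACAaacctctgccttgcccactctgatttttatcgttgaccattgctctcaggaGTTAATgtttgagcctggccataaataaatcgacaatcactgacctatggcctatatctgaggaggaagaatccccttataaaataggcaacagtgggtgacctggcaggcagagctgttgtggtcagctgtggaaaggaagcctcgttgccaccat

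Both strands were searched, and no match overlapped another motif. The STAT-type palindrome TTCNNNGAA lay in windows of Slc17a2 (at -191 from the start site) and Prlr (at -110), and in 8.3% of the 32851 mouse windows. The HNF4-type motif CAAAGTNCA lay in the Hdc window (at -117) and in 1.41% of all windows. The androgen and glucocorticoid receptor half-site AGAACA, capitalised in Hdc as its reverse complement, lay in 4 of the 12 windows, 1 each of Hdc, Igf2, Prlr and Fabp1, and in 19% of all windows. The HNF1 half-site GTTAAT lay in the Fabp1 window (at -107) and in 7.1% of all windows. No motif was held by all 6 genes, and a match describes letters, not binding.

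Libraries held 17405493 to 23462056 counts as used here. Total_WT replicate 1 was deposited with 200140709 counts, and for no gene was its value smaller than the 9 nuclear libraries added together. Their counts were taken off for each gene, and the remaining 19034520 counts stand for this library below. Tubule transcripts dominated all groups. The 8 markers of proximal tubule segments S1 and S2 summed to group means of 9150 to 13200 CPM (counts relative to library size, with libraries scaled by the trimmed mean of M values, TMM), whereas the 12 podocyte markers, each detected, summed to 296 to 534 CPM. The levels of the 9 genes are therefore those of a tubule-rich mixture, in which fewer cells of a type and less RNA per cell cannot be told apart. Xist, the noncoding RNA of the inactive X chromosome, averaged 504 CPM in Nuclear_homo, 516 CPM in Nuclear_heto and 0.538 CPM in Nuclear_WT, and 1.25, 0.624 and 346 CPM in Total_homo, Total_heto and Total_WT. The summed CPM of the Y-linked Ddx3y, Eif2s3y, Kdm5d and Uty was the mirror image, at 0.609, 2.59 and 162 in the nuclear and 160, 156 and 0.706 in the total homo, heto and WT groups. Every comparison with WT thus set libraries of high Xist against libraries of low Xist, so genotype and the source of this difference cannot be told apart there. The nuclear and total libraries of each genotype were on opposite sides as well, so fraction cannot be told apart from it either. Homo and heto libraries of the same fraction were on the same side, although the 4 Y-linked genes were lower in Nuclear_homo than in Nuclear_heto. Of the other marker sums, those of S3 proximal tubule (2910 to 8400 CPM), distal tubule (7140 to 11700), collecting duct (922 to 2030), endothelium (594 to 995), stroma (265 to 409), fetal kidney (146 to 228) and adrenal cortex (5.78 to 9.79 CPM, group means) overlapped between the high and low Xist libraries.

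The 9 genes followed the same division. For 8 of them, all 9 libraries of Nuclear_homo, Nuclear_heto and Total_WT lay above all 9 others, as did 420 of 15410 tested genes (2.73%). That pattern is what they were chosen for, so it is a description. Serpina6 was the exception, because its 3 Total_homo libraries reached 5.07 CPM while the lowest Nuclear_heto library held 3.48 CPM. The distance between the sets differed between genes: the lowest of the 9 high libraries stood 41.5 times above the highest of the others for Slc17a2, 12.8 times for Igf2, 4.8 times for Atp13a4 and 4.54 times for Rdh19. Per kilobase of gene length, which allows genes to be compared, the mean levels in Total_WT were 152 CPM per kb for Hdc, 95 for Igf2, 35.1 for Akr1c20, 24.1 for Prlr, 12.7 for Fabp1, 9.44 for Serpina6, 8.28 for Slc17a2, 5.57 for Rdh19 and 1.63 for Atp13a4.

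**Figure D1:**
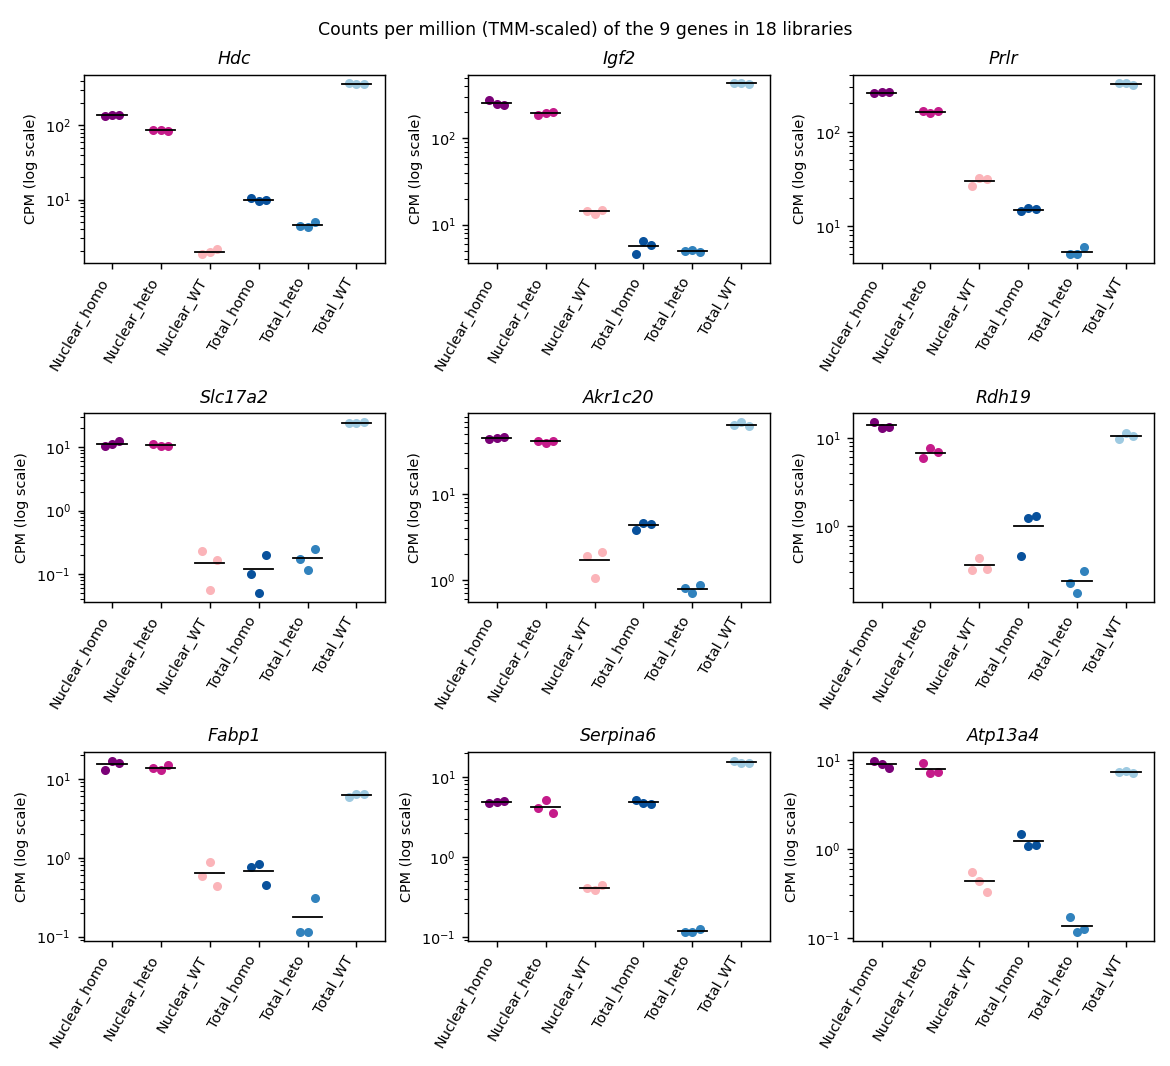
CPM of each gene (log axis, its own range per panel) in the 18 libraries. Points are libraries and bars are group means; Nuclear_homo, Nuclear_heto and Total_WT lie above the other groups, except that Serpina6 in Total_homo, at 4.60 to 5.07 CPM, is level with Nuclear_homo.

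Within the 3 high groups the genes did not keep 1 order. Hdc, Igf2, Prlr, Slc17a2, Akr1c20 and Serpina6 were higher in each Total_WT library than in any Nuclear_homo or Nuclear_heto library. Fabp1 was lower in each Total_WT library than in any of those 6. Rdh19 in Total_WT lay between Nuclear_homo and Nuclear_heto, and Atp13a4 in Total_WT overlapped Nuclear_heto. As a share of the Total_WT mean, Nuclear_homo held between 31.7% (Serpina6) and 244% (Fabp1). The low groups differed too. Total_homo held 31.5% of the Total_WT mean for Serpina6, 16.7% for Atp13a4, 11% for Fabp1, 9.51% for Rdh19 and 0.477% for Slc17a2, against 0.361% for Xist. Total_heto held between 0.725% (Slc17a2) and 2.89% (Fabp1), against 0.181% for Xist.

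Hdc encodes histidine decarboxylase, which makes histamine from histidine. It was measured at 136, 138 and 139 CPM in Nuclear_homo, 85.7, 87.8 and 83.6 CPM in Nuclear_heto and 1.82, 1.97 and 2.14 CPM in Nuclear_WT. In total RNA it was at 10.4, 9.54 and 9.86 CPM in Total_homo, 4.43, 4.29 and 4.99 CPM in Total_heto and 372, 359 and 365 CPM in Total_WT. None of the 6 groups overlapped its neighbour in the order Total_WT, Nuclear_homo, Nuclear_heto, Total_homo, Total_heto, Nuclear_WT. The mean of Nuclear_homo was 69.6 times that of Nuclear_WT, and that of Total_homo was 2.72% of Total_WT. Between the mutants, Hdc rose in homozygous over heterozygous nuclear RNA (log2 difference 0.68 ± 0.03 SE, edgeR adjusted p = 5.93e-32) and in total RNA (1.13 ± 0.09, edgeR adjusted p = 2.82e-25). The total call was lost when the deposited column of Total_WT replicate 1 was used without subtraction (edgeR adjusted p = 0.265), although the difference stayed at 1.14.

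Other genes of histamine synthesis, transport, breakdown and reception were compared between the same groups. In Nuclear_homo against Nuclear_heto, where 21.4% of 15112 tested genes were higher and 21.8% lower, 3 of the 9 other tested histamine genes were higher and 1 lower. Slc22a2, an organic cation transporter that carries histamine, was higher (0.64 ± 0.03), as was Hnmt (0.29 ± 0.06), which methylates histamine. Aoc1, the diamine oxidase that degrades histamine, was lower (-0.95 ± 0.06). In Total_homo against Total_heto, where 32.9% of 15051 tested genes were higher and 34.1% lower, 4 of 9 were higher and 3 lower. There Slc22a2 was lower (-2.97 ± 0.03) and Aoc1 (0.48 ± 0.07), Hnmt (0.46 ± 0.06) and the monoamine oxidase Maoa (0.42 ± 0.07) were higher. The differences printed for these genes, and for those named from the other lists below, had an edgeR adjusted p under 0.05 over all tested genes. The shares of all tested genes given here are also those to set beside the counts of the other lists in the same comparisons.

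Hdc is also a gene of mast cells and basophils. The summed CPM of the 10 mast cell and basophil markers lay in 75.5 to 77.6 in Nuclear_homo, 76.9 to 77.9 in Nuclear_heto and 78.3 to 79.9 in Total_WT, above 65.6 to 66.8 in Nuclear_WT, 63.4 to 71.2 in Total_homo and 47.5 to 55.5 in Total_heto. Only 3 of the 10 averaged over 1 CPM, and most of the sum came from Gata2 and Kit, which other cells express (Gata2 39.8 CPM and Kit 31.7 CPM in Nuclear_homo). None of the 10 was at 0 in all libraries. The carboxypeptidase Cpa3, a defining mast cell marker, was at 0.462 CPM in Nuclear_homo, 0.215 in Nuclear_heto and 0.152 in Total_WT, against 0.107 in Nuclear_WT, 0.1 in Total_homo and 0.339 in Total_heto.

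Igf2 stood at 275, 248 and 244 CPM in Nuclear_homo, 186, 198 and 203 CPM in Nuclear_heto and 14.5, 13.4 and 14.6 CPM in Nuclear_WT. Total RNA held 4.51, 6.54 and 5.82 CPM in Total_homo, 5.0, 5.1 and 4.87 CPM in Total_heto and 434, 431 and 425 CPM in Total_WT. The Total_homo and Total_heto libraries overlapped, while all other neighbouring groups were separate. Igf2 rose in nuclear RNA of homozygous over heterozygous mice (0.39 ± 0.03, edgeR adjusted p = 1.03e-13). In total RNA the difference was 0.18 (95% interval -0.06 to 0.41, edgeR adjusted p = 0.175), and it passed the threshold with library totals alone (0.33, edgeR adjusted p = 0.00968) and without Total_homo replicate 1 (0.32, edgeR adjusted p = 0.023). Of the 50-base stretches of annotated Igf2 transcripts, 61.2% also lay in Gm49394, so how reads were divided between them is uncertain.

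Igf2r, the receptor that clears IGF2 by endocytosis and is itself imprinted, was low in the same 3 groups where Igf2 was high, but also in Total_homo. It averaged 141 ± 1.09 CPM in Nuclear_homo, 135 ± 3.27 in Nuclear_heto and 217 ± 6.84 in Nuclear_WT, and 126 ± 2.75, 245 ± 2.55 and 125 ± 2.02 CPM in Total_homo, Total_heto and Total_WT (SD, n = 3), so Total_homo and Total_WT were level. Igf2r fell in Total_homo against Total_heto (-0.96 ± 0.03, edgeR adjusted p = 4.17e-68). Of 22 other insulin-like growth factor genes, 8 were higher and 5 lower in Nuclear_homo against Nuclear_heto, and 10 were higher and 4 lower in Total_homo against Total_heto. The proteases Pappa (-1.14 ± 0.07) and Pappa2 (-2.63 ± 0.14), which cleave IGF-binding proteins, were lower in the nuclear comparison, and Pappa was higher in the total one (1.27 ± 0.07). Among 16 other imprinted genes 4 were higher and 2 lower in the nuclear comparison, and among 15 tested in total RNA 6 were higher and 4 lower. Cdkn1c, an imprinted inhibitor of cyclin-dependent kinases and a podocyte marker, was lower in nuclear (-0.86 ± 0.05) and higher in total RNA (1.33 ± 0.06). The podocyte marker sum was likewise 412 CPM in Nuclear_homo and 488 CPM in Nuclear_heto, and 519 CPM in Total_homo and 296 CPM in Total_heto, and its part in these differences was not tested.

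Prlr had 259, 261 and 262 CPM in Nuclear_homo, 164, 159 and 167 CPM in Nuclear_heto and 26.7, 32.3 and 31.5 CPM in Nuclear_WT. Total RNA gave 14.3, 15.4 and 15.1 CPM in Total_homo, 5.0, 5.04 and 5.99 CPM in Total_heto and 328, 328 and 315 CPM in Total_WT. All 6 groups were separate, and Nuclear_WT, at 9.31% of the Total_WT mean, lay above Total_homo and Total_heto. Prlr rose in homozygous over heterozygous mice in nuclear (0.67 ± 0.03, edgeR adjusted p = 6.8e-31) and total RNA (1.49 ± 0.08, edgeR adjusted p = 7.85e-41). Of 19 other genes of prolactin and STAT5 signalling, 1 was higher and 11 were lower in nuclear RNA, beside 21.4% higher and 21.8% lower over all tested genes. The lower ones included Stat3 (-0.63 ± 0.04) and Socs3 (-1.58 ± 0.11), and the higher one was Ghr, the growth hormone receptor (0.28 ± 0.02). The summed leukocyte markers were at 498 to 515 CPM in Nuclear_homo and 1460 to 1540 CPM in Nuclear_heto, with 9 of the 10 markers detected and none at 0 in all libraries, and their part in these differences was not tested. In total RNA, where leukocyte markers summed to 934 CPM in Total_homo and 944 CPM in Total_heto, 8 of the 19 were higher and 7 lower. Socs2, a STAT5 target that restrains growth hormone signalling, was higher (1.64 ± 0.05), while Cish, another STAT5 target (-0.62 ± 0.04), and Ghr (-0.9 ± 0.02) were lower. Of 11 steroid, thyroid, vitamin D and growth hormone receptors, 7 were higher and 1 lower in the nuclear and 5 were higher and 5 lower in the total comparison, with the vitamin D receptor Vdr higher in nuclear (0.4 ± 0.03) and lower in total RNA (-0.39 ± 0.02).

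Akr1c20, an aldo-keto reductase, was at 43.7, 45.4 and 46.1 CPM in Nuclear_homo, 42.1, 40.0 and 42.1 CPM in Nuclear_heto and 1.91, 1.04 and 2.09 CPM in Nuclear_WT. It was at 3.85, 4.57 and 4.5 CPM in Total_homo, 0.795, 0.695 and 0.873 CPM in Total_heto and 63.7, 69.6 and 61.8 CPM in Total_WT. The groups were separate, but in nuclear RNA the 2 mutants were close. The nuclear difference was 0.12 ± 0.05 (edgeR adjusted p = 0.0496) and lost its call under 11 alternatives, among them DESeq2 (adjusted p = 0.118) and library totals alone (0.07, edgeR adjusted p = 0.318). In total RNA Akr1c20 rose in homozygous over heterozygous mice by 2.45 ± 0.2 (edgeR adjusted p = 5.63e-23).

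The Akr1c genes next compared lie in the same cluster on chromosome 13. Akr1c21, a hydroxysteroid dehydrogenase, averaged 63.8 CPM in Nuclear_homo, 72.4 in Nuclear_heto and 360 in Nuclear_WT, and 390, 367 and 20.8 CPM in Total_homo, Total_heto and Total_WT, so it was low where Akr1c20 was high. Akr1c14 was at 25.9, 28.2 and 523 CPM in nuclear homo, heto and WT libraries and at 161, 781 and 92.6 CPM in the total ones. It was lower in Total_homo than in Total_heto (-2.27 ± 0.02, edgeR adjusted p = 2.99e-126), the reverse of Akr1c20. Akr1c19 was at 44.1, 49.9 and 21.0 CPM in the nuclear and 36.2, 13.2 and 42.2 CPM in the total homo, heto and WT libraries, so it too was highest in the 3 groups where Akr1c20 was high. It was lower in Nuclear_homo than in Nuclear_heto (-0.18 ± 0.05), unlike Akr1c20, and higher in Total_homo than in Total_heto (1.46 ± 0.06). Of 13 other aldo-keto reductases tested, 7 were higher and 5 lower in the nuclear mutant comparison, and 5 were higher and 7 lower in the total one. Only 1.51% of the 50-base stretches of Akr1c20 were shared with another gene, Akr1c6.

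**Figure D2:**
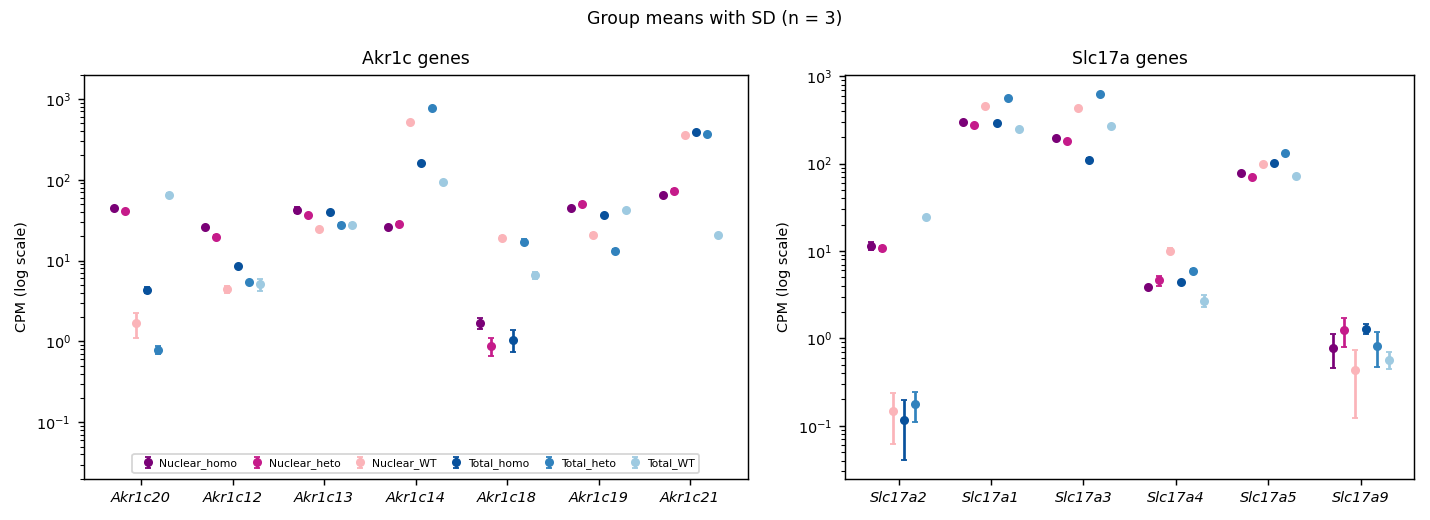
Group means with SD (n = 3) in CPM, on log axes, of those Akr1c and Slc17a genes whose mean reached 1 CPM in 1 or more groups, with Akr1c20 and Slc17a2 at the left of their panels. Akr1c14 and Akr1c21 are lowest in groups where Akr1c20 is high, and Slc17a1 and Slc17a3 stay above 100 CPM in all groups.

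Rdh19, of the retinol dehydrogenase family, had 15.1, 13.0 and 13.2 CPM in Nuclear_homo, 5.97, 7.57 and 6.9 CPM in Nuclear_heto and 0.319, 0.437 and 0.33 CPM in Nuclear_WT. It had 0.456, 1.23 and 1.31 CPM in Total_homo, 0.227, 0.174 and 0.312 CPM in Total_heto and 9.68, 11.2 and 10.6 CPM in Total_WT. The Total_homo libraries rest on 9, 25 and 26 counts and those of Total_heto on 4, 3 and 5. Rdh19 rose by 1.02 ± 0.1 in nuclear RNA of homozygous over heterozygous mice (edgeR adjusted p = 1.38e-15), the largest nuclear difference among the 9 genes, and by 2.06 ± 0.4 in total RNA (edgeR adjusted p = 2.97e-06). Of its 50-base stretches, 18.6% were shared with other genes, 11.3% with Rdh16f1, so the division of reads is uncertain. Of 23 other retinoid genes 13 were higher and 3 lower in Nuclear_homo against Nuclear_heto, beside 21.4% and 21.8% of all tested genes. They were led by Cyp26b1, which degrades retinoic acid (1.46 ± 0.06), and Aldh1a1, which makes it (0.59 ± 0.03), both higher. In Total_homo against Total_heto 7 were higher and 7 lower, beside 32.9% and 34.1% of all tested genes. There Rdh16 (1.21 ± 0.02) and Aldh1a3 (2.61 ± 0.06) were higher and Rdh10 lower (-0.99 ± 0.03).

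Fabp1, the liver-type fatty acid-binding protein and a known PPAR alpha target, was at 12.9, 16.9 and 15.9 CPM in Nuclear_homo, 13.8, 12.8 and 15.1 CPM in Nuclear_heto and 0.592, 0.873 and 0.439 CPM in Nuclear_WT. Total RNA held 0.761, 0.836 and 0.455 CPM in Total_homo, 0.114, 0.116 and 0.312 CPM in Total_heto and 5.95, 6.4 and 6.38 CPM in Total_WT. The nuclear mutants overlapped, and their difference of 0.13 (95% interval -0.03 to 0.3) did not pass the threshold (edgeR adjusted p = 0.204), although it did without Nuclear_homo replicate 1 (0.24, edgeR adjusted p = 0.0194). In total RNA Fabp1 rose by 1.92 ± 0.48 in homozygous over heterozygous mice (edgeR adjusted p = 0.000202), on 41 counts in Total_homo and 9 in Total_heto. The ratio of these counts, scaled for depth, was 3.88 with an exact 95% interval of 1.86 to 9.07 that covers counting error only. Of 5 other fatty acid-binding proteins, 3 were higher and 1 lower in each mutant comparison, with Fabp4 higher (0.5 ± 0.03 in nuclear and 0.39 ± 0.02 in total RNA) and Fabp7 lower (-0.57 ± 0.1 and -0.76 ± 0.13). Fabp2 had the largest nuclear difference of the 5 (3.62 ± 0.64) and did not pass in total RNA (0.61 ± 1.53, edgeR adjusted p = 0.739).

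Of 19 other tested genes of the PPAR alpha list, 17 were higher and 2 lower in Nuclear_homo against Nuclear_heto, beside 21.4% and 21.8% of all tested genes, with a median of 0.34 beside 0. Against Nuclear_WT, where high and low Xist libraries were compared, 8 were higher and 10 lower in Nuclear_homo, beside 26.5% and 27.8% of all tested genes. In Nuclear_heto against Nuclear_WT 4 were higher and 14 lower, beside 32.8% and 31.7%. The genes higher in Nuclear_homo than in Nuclear_heto included Pdk4 (1.45 ± 0.04) and the fatty acid hydroxylases Cyp4a10 (1.07 ± 0.02) and Cyp4a14 (0.85 ± 0.02). In Total_homo against Total_heto 7 were higher and 10 lower. Cyp4a14 averaged 777 CPM in Nuclear_homo, 432 in Nuclear_heto and 22.8 in Nuclear_WT, and 273, 3.59 and 415 CPM in Total_homo, Total_heto and Total_WT. It was higher in Total_homo than in Total_heto (6.26 ± 0.04), as was Cyp4a10 (2.17 ± 0.02), whereas Acadm (-1.36 ± 0.01) and the fatty acid transporter Cd36 (-2.14 ± 0.02) were lower. The S1 and S2 proximal tubule markers, of cells that express many of these genes, summed to 11700 to 12000 CPM in Nuclear_homo and 9040 to 9210 CPM in Nuclear_heto, and to 9950 to 10100 CPM in Total_homo and 12700 to 12800 CPM in Total_heto, with all 8 detected. Their part in these differences was not tested.

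Serpina6, corticosteroid-binding globulin, was at 4.68, 4.81 and 4.96 CPM in Nuclear_homo, 4.07, 5.18 and 3.48 CPM in Nuclear_heto and 0.41, 0.382 and 0.439 CPM in Nuclear_WT. It was at 5.07, 4.67 and 4.6 CPM in Total_homo, 0.114, 0.116 and 0.125 CPM in Total_heto and 15.8, 15 and 14.8 CPM in Total_WT. Total_homo overlapped both Nuclear_homo and Nuclear_heto, so this gene departed from the pattern in 1 of the 3 low groups. The nuclear difference between the mutants was 0.18 (95% interval -0.11 to 0.46, edgeR adjusted p = 0.331). In total RNA the difference was 5.27 ± 0.3 (edgeR adjusted p = 7.09e-36), the largest among the 9 genes, with 100, 95 and 91 counts in the Total_homo libraries and 2 counts in each Total_heto library. The ratio of the summed counts, 286 against 6, was 40.6 with an exact 95% interval of 18.4 to 111.

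Other genes of the serpin A cluster and of the glucocorticoid response were counted in both fractions. In Nuclear_homo against Nuclear_heto 4 of 19 others were higher and 11 lower (median -0.69), and in Total_homo against Total_heto 15 of 18 were higher and 2 lower (median 0.65, beside 0.01 over all tested genes). By the interaction test of each gene, 15 of 19 had a smaller homo-heto difference in nuclear than in total RNA, and 2 a larger one, beside 31.9% and 31.7% of all tested genes. The glucocorticoid-induced Tsc22d3 was lower in the nuclear (-0.49 ± 0.04) and higher in the total comparison (1.05 ± 0.03). Fkbp5, another such gene, was lower in the nuclear (-0.76 ± 0.04) and higher in the total comparison (0.46 ± 0.03). Per1 (2.05 ± 0.05) and Sgk1 (1.24 ± 0.03) were higher in the total one. In the nuclear one Sgk1 was slightly higher (0.15 ± 0.03) and Per1 did not pass. The lower genes there included the serpins Serpina3f (-4.19 ± 0.38) and Serpina3g (-2.85 ± 0.14). The summed leukocyte markers were at 506 CPM in Nuclear_homo and 1510 CPM in Nuclear_heto, and their part in these differences was not tested. The serpin Serpina1f, a neighbour of Serpina6 on chromosome 12, averaged 223, 197 and 127 CPM in nuclear homo, heto and WT libraries and 154, 71.1 and 279 CPM in the total ones, and rose in Total_homo over Total_heto (1.12 ± 0.03).

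Fabp1 and Serpina6 are abundant in liver, and the 12 hepatocyte markers, 7 of them over 1 CPM on average, were examined beside them. Their sum was 102 to 105 CPM in Nuclear_homo, 68.0 to 73.5 in Nuclear_heto and 86.4 to 91.1 in Total_WT, below 130 to 134 CPM in Nuclear_WT, 115 to 117 in Total_homo and 243 to 247 in Total_heto. None of the 12 was at 0 in all libraries. Ttr was at 36.2 CPM in Nuclear_homo, 21.3 in Nuclear_heto and 32.9 in Total_WT, against 70.6 in Nuclear_WT, 43.5 in Total_homo and 160 in Total_heto. Alb, the most abundant liver transcript, was instead higher where Fabp1 was, at 21.5 CPM in Nuclear_homo, 15.8 in Nuclear_heto and 13.2 in Total_WT, against 4.98 in Nuclear_WT, 2.93 in Total_homo and 5.4 in Total_heto.

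Slc17a2, an anion transporter of the sodium-phosphate cotransporter family, had 10.4, 11.3 and 12.6 CPM in Nuclear_homo, 11.5, 10.4 and 10.4 CPM in Nuclear_heto and 0.228, 0.0546 and 0.165 CPM in Nuclear_WT. It had 0.101, 0.0492 and 0.202 CPM in Total_homo, 0.17, 0.116 and 0.25 CPM in Total_heto and 24.1, 24.6 and 25.2 CPM in Total_WT. The 3 low groups overlapped and held only 1 to 5 counts per library. Neither mutant comparison passed the threshold, with differences of 0.08 in nuclear RNA (95% interval -0.1 to 0.27, edgeR adjusted p = 0.498) and -0.56 in total RNA (-1.93 to 0.8, edgeR adjusted p = 0.479). In total RNA 7 counts in Total_homo stood against 9 in Total_heto and the ratio of 0.662 had an exact 95% interval of 0.209 to 2.0. Slc17a1 and Slc17a3, which lie beside Slc17a2 on chromosome 13, did not share its profile. Slc17a3 averaged 199, 181 and 429 CPM in nuclear homo, heto and WT libraries and 111, 631 and 269 CPM in the total ones. Of 5 other tested members of the family 3 were higher and 0 lower in Nuclear_homo against Nuclear_heto, where Slc17a1 (0.14 ± 0.03) and Slc17a3 (0.14 ± 0.03) rose slightly. In Total_homo against Total_heto 0 were higher and 4 lower, among them Slc17a3 (-2.51 ± 0.02), Slc17a1 (-0.96 ± 0.02) and Slc17a4 (-0.43 ± 0.14), the last of which lost its call with library totals alone (-0.28, edgeR adjusted p = 0.0725).

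Atp13a4, a P5-type ATPase related to polyamine transporters, was at 9.73, 8.97 and 7.99 CPM in Nuclear_homo, 9.28, 7.16 and 7.22 CPM in Nuclear_heto and 0.547, 0.437 and 0.33 CPM in Nuclear_WT. It was at 1.47, 1.08 and 1.11 CPM in Total_homo, 0.17, 0.116 and 0.125 CPM in Total_heto and 7.31, 7.55 and 7.07 CPM in Total_WT. The nuclear mutants overlapped each other, and Nuclear_heto also overlapped Total_WT, whereas Total_homo lay above Total_heto. The nuclear difference was 0.17 (95% interval -0.04 to 0.38, edgeR adjusted p = 0.199) and passed without Nuclear_heto replicate 1 (0.31, edgeR adjusted p = 0.0386). In total RNA Atp13a4 rose by 3.09 ± 0.43 (edgeR adjusted p = 1.52e-10), on 73 counts in Total_homo and 7 in Total_heto, a ratio of 8.87 with an exact 95% interval of 4.1 to 22.8. Of 13 other genes of polyamine metabolism and P5-type ATPases, 6 were higher and 2 lower in the nuclear and 3 were higher and 8 lower in the total mutant comparison. Odc1, which makes putrescine, was higher in Nuclear_homo (0.38 ± 0.03) and lower in Total_homo (-2.49 ± 0.02), and the related ATPase Atp13a3 was lower in Total_homo (-0.82 ± 0.03).

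Across the 9 genes, homozygous and heterozygous mice were compared because these groups have the same Xist side and the choice of genes did not set them against each other. In Nuclear_homo against Nuclear_heto 5 of the 9 rose and 0 fell, where 21.4% of all tested genes were higher and 21.8% lower (43.2% in all). The median difference of the 9 was 0.18, beside 0 over all tested genes. The 5 were Hdc, Igf2, Prlr, Rdh19 and, close to the threshold, Akr1c20. In Total_homo against Total_heto 7 of 9 rose and 0 fell, where 32.9% of all tested genes were higher and 34.1% lower (67% in all), and the median was 1.92 beside 0.01. Igf2 and Slc17a2 did not pass there. All 9 genes passed the filter on low counts in both fits, but in total RNA Slc17a2, Rdh19 and Fabp1 passed only because Total_WT, a group in which they were chosen to be high, was in the fit. With Total_homo and Total_heto alone, 6 of the 9 were tested and 5 of these rose, so the count of 7 and its median describe the genes and support nothing further. With library totals in place of TMM the median of all genes moved by -0.055 in the nuclear and 0.15 in the total comparison, and no called gene among the 9 changed sign under it. The mixture of cells differed between the mutants as well. S1 and S2 proximal tubule markers summed to 11800 CPM in Nuclear_homo and 9150 in Nuclear_heto, and to 10000 in Total_homo and 12800 in Total_heto. S3 markers summed to 3570 and 2910 CPM in the nuclear and 3260 and 8400 CPM in the total groups. The part of the mixture in the differences of the 9 genes was not tested. The labels do not say whether a group's 3 libraries are of different animals, so these p-values measure the spread between libraries, which may be technical.

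**Figure D3:**
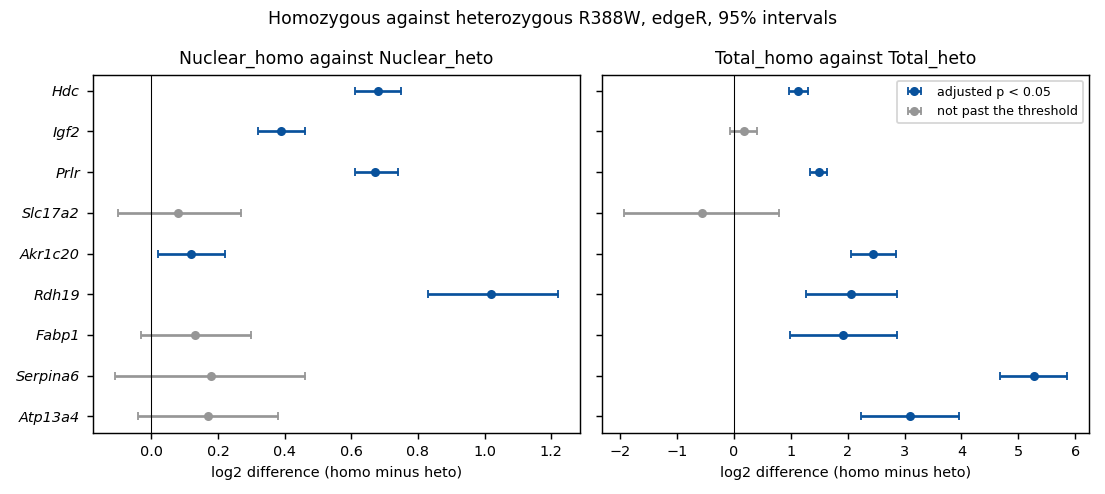
Difference between homozygous and heterozygous mice (log2, homo minus heto) of each gene in nuclear RNA at the left and total RNA at the right, with 95% intervals from edgeR and a separate axis range per panel. Blue points passed the threshold (5 genes at the left, 7 at the right), and the points at the right reach 5.27 for Serpina6.

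The size of the homo-heto difference differed between the fractions. In the fit of all 18 libraries, 7 of the 9 genes had a smaller difference in nuclear than in total RNA and 0 had a larger one, where 31.9% of 15410 tested genes were lower and 31.7% higher (63.6% in all). The median was -1.04, beside -0.02 over all genes. The total side of this test rests on the same low counts, and Slc17a2, Rdh19 and Fabp1 were not tested with Total_homo and Total_heto alone. The count of 7 and its median therefore describe the genes and support nothing further. Igf2 (0.21, edgeR adjusted p = 0.132) and Slc17a2 (0.66, edgeR adjusted p = 0.424) did not pass. Library totals alone shifted the median of all genes by -0.21 here.

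Likeness to the 9 genes was measured over the 18 libraries as the correlation of log2(CPM + 0.5) with their mean standardised profile, among the 11526 genes that averaged 5 CPM or more. The libraries of a group share their condition, so these values describe the pattern and carry no p. The 9 genes themselves had r of 0.812 (Serpina6) to 0.994 (Akr1c20) with the mean of the other 8. The most similar genes outside the set were Cbr1 (0.988), Spidr (0.986), Acot7 (0.985), Nxpe3 (0.985), Maoa (0.984), Mmd (0.984), Tle2 (0.984), Kcnk1 (0.983), Slc22a29 (0.983) and Xist (0.977), and 139 genes in all reached 0.9. Cbr1, a carbonyl reductase, averaged 497, 315 and 60.5 CPM in nuclear homo, heto and WT libraries and 118, 44.3 and 472 CPM in the total ones, so its homozygous means also lay above its heterozygous ones. Maoa averaged 35.1, 37.3 and 15.9 CPM in the nuclear and 20.7, 15.6 and 37.5 CPM in the total homo, heto and WT libraries, a smaller range.

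The most opposite genes were Slc7a13 (-0.997), Mpped1 (-0.997), Col6a6 (-0.996), Car9 (-0.994) and Pzp (-0.992), and 303 genes reached -0.9. Slc7a13, an amino acid transporter of the last proximal tubule segment known to be higher in male mice, averaged 8.41, 18 and 755 CPM in nuclear homo, heto and WT libraries and 287, 1060 and 6.18 CPM in the total ones. Car9, a carbonic anhydrase, was at 7.39, 8.87 and 49.1 CPM in the nuclear and 47.0, 89.7 and 5.43 CPM in the total homo, heto and WT libraries. For both genes Total_homo lay between Total_WT and Total_heto, as it did for Hdc, Prlr and Akr1c20 in the other direction.

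**Figure D4:**
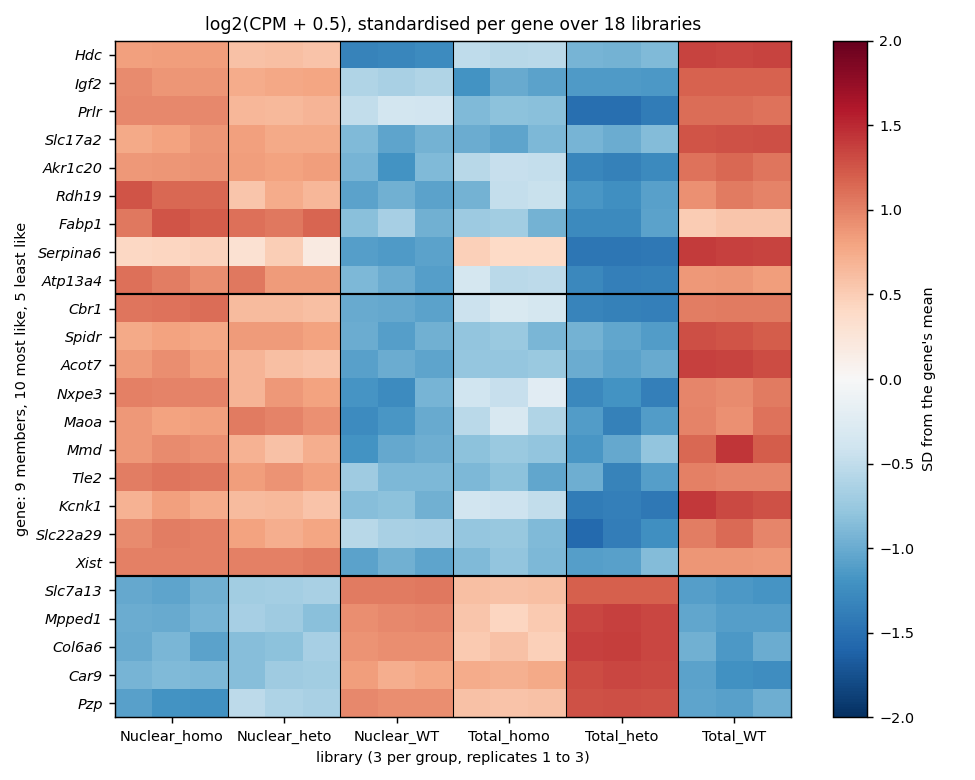
log2(CPM + 0.5) of the 9 genes, the 10 most similar and the 5 most opposite genes in each of 18 libraries, standardised per gene over the libraries (colour, in SD). The top 19 rows are red in Nuclear_homo, Nuclear_heto and Total_WT, with Serpina6 also red in Total_homo, and the bottom 5 are blue there.

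Neighbouring genes, up to 3 on each side in the RefSeq order of GRCm38.p6, were looked at for the same pattern. Of 50 neighbours 36 passed the filter on low counts in the fit of 18 libraries. Of these, 2 (Akr1c19 and Serpina1f) had all 9 libraries of the 3 high groups above all others, and 3 (Usp8, Akr1c21 and Mb21d2) had them below, beside 2.73% and 4.23% of all tested genes, counts too small to set the neighbours apart. No neighbour of Hdc, Igf2 or Prlr was among the 2. Gabpb1 beside Hdc had higher means in the high groups, but its libraries overlapped. It averaged 24.8, 22.0 and 18.3 CPM in nuclear homo, heto and WT libraries and 16.6, 19.2 and 30.4 CPM in the total ones. Ins2 beside Igf2 was too low for this comparison, at 0.115, 0.104 and 0.0 CPM in the nuclear and 0.0164, 0.0 and 0.333 CPM in the total homo, heto and WT libraries.

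Some pathway genes were also called against WT, where high and low Xist libraries were compared and the 9 genes serve only as a description. In Nuclear_homo against Nuclear_WT (26.5% of all tested genes higher, 27.8% lower, 54.3% in all) 6 of 9 histamine genes were higher and 1 lower, with Maoa (1.15 ± 0.06) and Slc22a3 (2.09 ± 0.2) higher and Slc22a2 lower (-1.14 ± 0.03). In Total_homo against Total_WT (30.6% higher, 31% lower, 61.6% in all) 1 was higher and 6 lower, with Maoa (-0.85 ± 0.06) and Slc22a2 (-1.25 ± 0.03) lower. In Nuclear_heto against Nuclear_WT (32.8% higher, 31.7% lower, 64.6% in all) 5 were higher and 1 lower, and in Total_heto against Total_WT (30.9% higher, 30.3% lower, 61.1% in all) 1 was higher and 4 lower. In homozygous mice Slc22a2 was thus lower than WT in both fractions, unlike Hdc. In heterozygous mice Slc22a2 was lower than WT in nuclear RNA (-1.78 ± 0.03) and higher in total RNA (1.71 ± 0.03). In Nuclear_homo and Total_homo against WT, of the 5 other tested SLC17 genes, 0 rose and 4 fell in nuclear RNA, and 4 were higher and 1 lower in total RNA, with Slc17a3 lower in both (-1.1 ± 0.03 and -1.27 ± 0.02). In heterozygous mice against WT, 1 of the 5 was higher and 4 lower in nuclear RNA, and 4 were higher and 0 lower in total RNA, where Slc17a3 was higher (1.23 ± 0.02). Cish, the STAT5 target, was lower than WT in nuclear and total RNA of homozygous (-1.62 ± 0.04 and -1.27 ± 0.04) and heterozygous mice (-1.39 ± 0.04 and -0.64 ± 0.03). The call in Total_heto was lost with the deposited column of Total_WT replicate 1 (edgeR adjusted p = 0.321). Prlr was 8.65 times its WT mean in Nuclear_homo and 4.61% of it in Total_homo, and a link between Cish and Prlr was not tested. All log2 differences named here had an edgeR adjusted p under 0.05.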

How the data were processed

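Per the labels' protocols, TRIzol was used for extraction and a KAPA stranded mRNA kit for the libraries. The submitters' processing notes name the build mm9 and the tools STAR 2.5.2b, CASAVA, DESeq2 and featureCounts. The annotation and the strand setting are not given in the sources used here. The authors deposited whole-number counts per gene symbol, not normalised, with gene lengths, which were used for levels per kb. The nuclear sum was subtracted from Total_WT replicate 1.

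Genes were filtered with filterByExpr and tested in R 4.3.3 with edgeR 4.0.16 (TMM, robust glmQLFit and glmQLFTest, Benjamini-Hochberg adjusted p under 0.05), in 1 fit of 9 libraries per fraction (15112 nuclear and 15051 total genes) and 1 of all 18 for the difference between fractions (15410 genes). Each SE is the one that yields the reported p. The fits were tested on simulated counts with known changes. Intervals from counts are exact, at 95%. Biological coefficients of variation were 3.05% in nuclear and 3.9% in total RNA. Groups came from sample names and genotype labels.

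The 9 genes and the 13 pathway and 12 marker lists were chosen with earlier results of these data known. Named beside the 9 were the 10 most and 5 least similar genes, up to 4 called genes per list and comparison by smallest p, neighbouring genes and markers; some genes that this rule names are not reported here. Igf2r and Maoa profiles and single neighbours and markers were picked from these after their values were seen. Alternatives were DESeq2 1.42.0, other scalings and filters, the replicate number as a block, other sets of libraries, leaving out each library and, chosen after seeing the data, leaving out Rn45s, the ribosomal RNA precursor (0.11% to 7.12% of counts). Reads carry no molecular identifiers.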

Additional observations from a re-analysis of the deposited data

Results flagged for a closer look

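For 7 genes the difference between homozygous and heterozygous mice was not the same in the 2 fractions, by a test of the difference itself (edgeR interaction in the fit of 18 libraries). The nuclear minus total log2 difference was -5.09 for Serpina6 (edgeR adjusted p = 5.89e-27), -2.92 for Atp13a4 (4.88e-09), -2.33 for Akr1c20 (6.16e-19), -1.78 for Fabp1 (0.000604), -0.81 for Prlr (1.66e-15) and -0.44 for Hdc (0.000209). For Rdh19 it was -1.04 (edgeR adjusted p = 0.0296), and this call was lost in 6 of the alternatives, with an edgeR adjusted p of up to 0.135 without Total_homo replicate 3. In each case the estimate was positive in both fractions and larger in total RNA. Rdh19 and Fabp1 had too few counts to be tested with Total_homo and Total_heto alone, so their values are a description. The nuclear libraries of both mutants have high Xist and the total ones low Xist, so fraction and the source of this difference cannot be told apart.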

How the results depend on the processing

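Of 7950 alternative values, 7859 kept direction and side of the threshold, or stayed close to the reported value. With a mean of at least 5 CPM, 4 of the 9 genes were called in Total_homo against Total_heto in place of 7, because fewer were tested. With the deposited column of Total_WT replicate 1, 4 in place of 7 were called in the difference between fractions, and the calls of Hdc (-0.44, edgeR adjusted p = 0.655), Prlr (-0.81, 0.0793) and Rdh19 (-1.05, 0.104) were lost while their log2 differences stayed within 0.01; the cause was not tested. Of the 10 most similar genes, 1 was shared when ranked by Spearman correlation and 6 over the 6 group means. The interaction of Fabp4 reversed with library totals alone (-0.1). Leaving out 1 library gave 4 to 6 called genes in the nuclear, 7 to 8 in the total and 6 to 7 in the interaction comparison. With the replicate number as a block, 5, 7 and 7 of the genes were called, among 6569, 10079 and 9789 of all genes. Same-numbered libraries of different genotypes within a fraction did not deviate together (correlations of -0.12 to 0.08). Nuclear and total libraries of the same number were not compared in this way. Those of each genotype were on opposite sides in Xist and Y-linked RNA, so as labelled a shared number does not mark a shared animal across fractions. Low counts limit Slc17a2, Fabp1, Rdh19, Serpina6 and Atp13a4 in total mutant RNA.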
